A study of Homo sapiens with 2 samples.

Results

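The genes of CTCF and the cohesin machinery were examined for WSTF summits in SW620 cells. The 10 genes were CTCF, CTCFL, RAD21, SMC1A, SMC3, STAG1, STAG2, NIPBL, WAPL and PDS5A, of 19974 protein-coding genes on the chromosomes that carry summits. They were selected on their function and on the summits themselves, with presence, score and distance to the gene ends known, so those values are given as descriptions with no test. Of the 10 genes, 3 had a summit inside the gene or up to 1 kb outside it: CTCF, WAPL and STAG1. That is 30.0% of the genes (interval 6.67 to 65.2), beside 13.8% of all protein-coding genes, 2765 of 19974. The remaining 7 had none in that window. Counting gene ends alone, within 1 kb of either end, the same 3 genes had a summit, beside 11.6% of all protein-coding genes. With 10 genes chosen with their summits known, the share is only a description. The interval is wide and covers counting error alone. For genes chosen this way it gives no comparison with the share over all genes.

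CTCF is a zinc finger protein that binds insulator sequences and marks the anchors of chromatin loops. Cohesin is a ring made of SMC1A, SMC3 and RAD21 with STAG1 or STAG2 bound to it. NIPBL loads the ring onto DNA and drives loop extrusion, WAPL opens the ring and releases it, and PDS5A binds the ring and takes part in both its release and its protection. Extruding cohesin halts at CTCF, which sets the borders of many loops. CTCFL, also called BORIS, is a paralog of CTCF that is normally made in the male germ line. WSTF, encoded by BAZ1B, is the partner of the ISWI ATPase SMARCA5, a nucleosome remodeller known to help CTCF occupy its sites. The present data do not show CTCF or cohesin on DNA. They give the places where WSTF chromatin immunoprecipitation was called, here at the genes that encode these proteins.

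SW620 is an established line taken from a metastasis of a human colorectal cancer, and the samples carry the tissue label colon. The series has 2 samples, SW620 and SW620-IP, and no label says which of them is the input. Its title speaks of knockdown of WSTF and its design text of overexpression, so the level of WSTF in these cells is not settled by the labels. Chromatin was fixed with 1% formaldehyde for 10 min and sheared to fragments of 200 to 500 bp. A single list of 2697 summits was analysed, with a score for each that was read as −log10 of the q-value. The scores ran from 1.31 to 5479 with a median of 3.72 and quartiles of 2.76 and 5.04. The score is the authors' own value and was used only to describe, rank and filter summits within the list. It is not a measure of binding strength. The sequencing depth is unknown and there are no replicate lists, so the absence of a summit does not show that WSTF is absent.

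CTCF, the loop anchor protein, had the highest-scoring summit of the 10 genes. The summit lay at position 67562238 of chromosome 16 (hg38), 288 bp upstream of the start of CTCF, with a score of 12.05. It ranked 20 of 2697 in the list, and 3 of 194 on its chromosome. CTCF spans positions 67562526 to 67639177. A further summit lay 672 bp inside the gene at position 67563198, with a score of 3.02 and rank 1771, a score that 91 summits of the list shared. The 2 summits were 960 bp apart. Among all protein-coding genes, 0.821% had 2 or more summits in this window, and CTCF was the only such gene of the 10. A score of at least 10 was reached at 0.22% of protein-coding genes, again with CTCF as the only case of the 10.

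WAPL, the releasing factor of cohesin, had a single summit at position 86521936 of chromosome 10, with a score of 5.79 and rank 423. It lay 144 bp upstream of the start of WAPL (86435256 to 86521792, read from the higher coordinate) and ranked 23 of 135 on its chromosome. The nearest other summit was 13.7 kb away.

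STAG1, which encodes 1 of the alternative cohesin subunits that contact CTCF, had a single summit at position 136751720 of chromosome 3. The summit scored 4.44, a value shared by 81 summits, with rank 892 of 2697 and 32 of 127 on its chromosome. It lay 658 bp inside the gene (136336236 to 136752378, read from the higher coordinate) and 415484 bp from the far end. The nearest other summit on that chromosome was 501 kb away. All 4 summits at these genes were therefore at the promoter end, and the gene bodies and far ends of the 10 genes held none beyond 1 kb from a start.

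**Figure D1:**
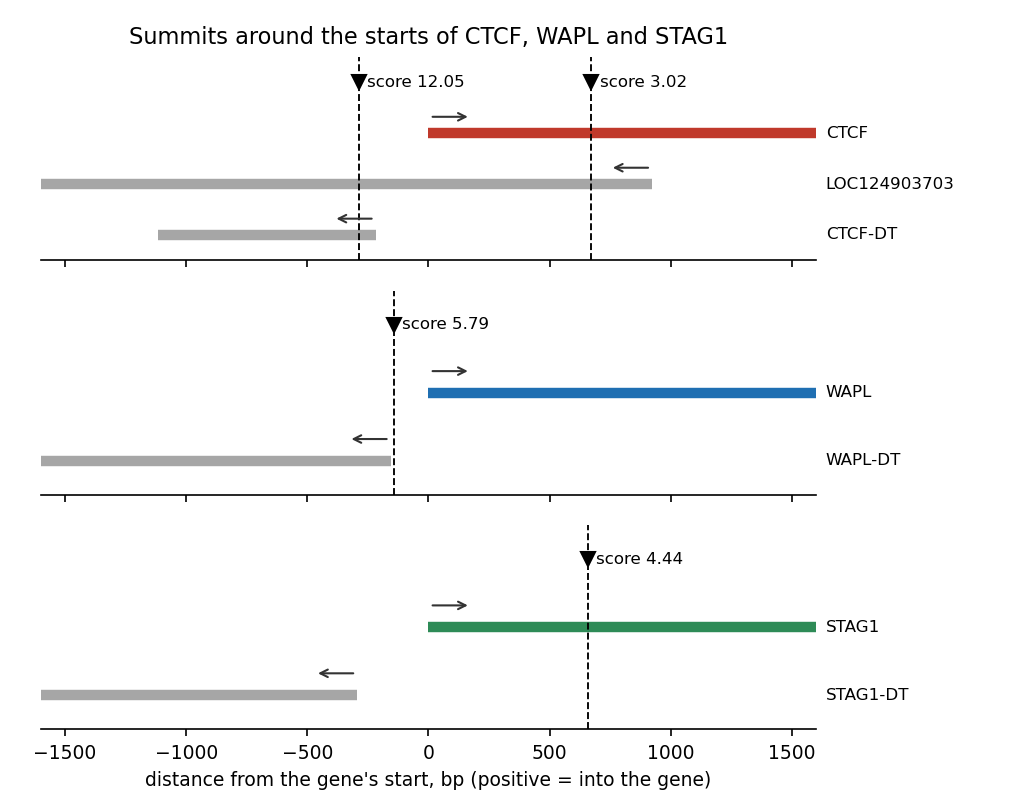
Summits (triangles with dashed lines and their scores) against distance in bp from the start of CTCF, WAPL and STAG1, with each gene drawn from left to right in colour and other genes within 1 kb of the same summit in grey, arrows giving their direction. The upstream CTCF summit and the WAPL summit lie 288 and 144 bp before the start, the others 672 and 658 bp inside the gene.

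The highest scores of the 3 genes all lay above the median of the list. The upstream CTCF summit stood above 99.3% of all summits, the WAPL summit above 84.3% and the STAG1 summit above 64.0%, while the inner CTCF summit stood above 31.0%. The highest score per gene had a median of 5.79 over the 3 genes, against 3.74 over the 2765 protein-coding genes with a summit. With 3 values that median is the WAPL score itself. The genes nearest to CTCF in score were ZNF274, a zinc finger gene on chromosome 19 (12.07), and the chaperonin gene CCT6A and the serine synthesis gene PSPH on chromosome 7, which share a summit of 12.14. Likeness here is the difference in highest score within 1 list, 0.02 for ZNF274 and 0.085 for the other 2.

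**Figure D2:**
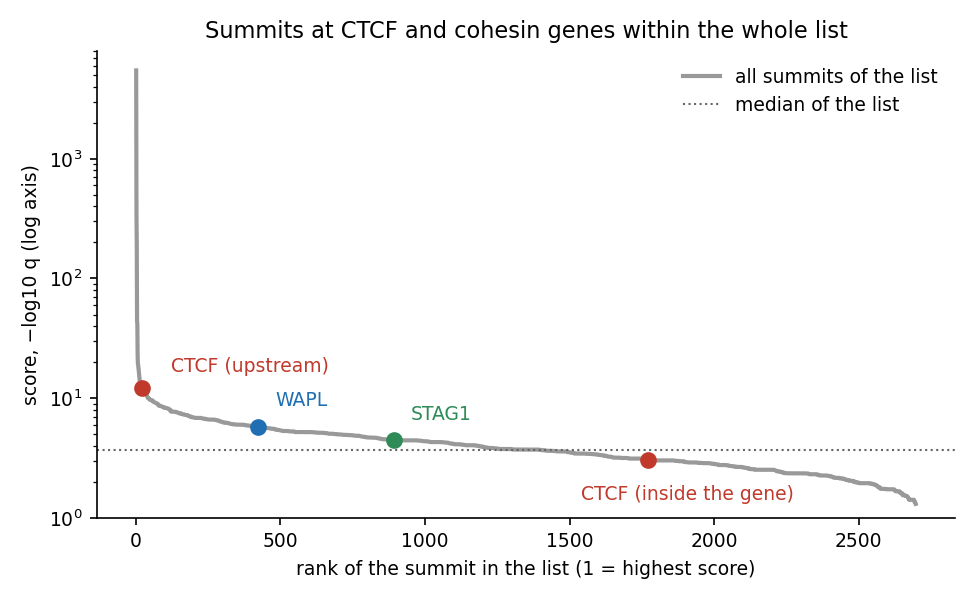
Score of every summit (−log10 q, log axis) against its rank in the list of 2697 (grey line), with the 4 summits at CTCF, WAPL and STAG1 as coloured points and the list median of 3.72 as a dotted line. The upstream CTCF summit (12.05), WAPL (5.79) and STAG1 (4.44) lie above the median and the inner CTCF summit (3.02) below it.

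The promoter sequences show what lies under the WAPL summit and near the others. The CTCF and STAG1 summits lie outside the windows, and the sequence under them was not read. Each window below runs from 250 bases before to 50 after the most upstream start of the gene listed in RefSeq (GRCh38.p14). It is given 5′ to 3′ on the strand of the gene. Capitals mark matches on either strand to any of 9 short motifs, named further on. WAPL is shown because its summit falls in the window, at base 107 (chr10:86521743-86522042, minus strand). CTCF is shown because its 2 summits flank the window, 38 bp before it and 623 bp after it (chr16:67562276-67562575, plus strand). STAG1 is shown because its summit lies inside the gene, 609 bp beyond the window (chr3:136752329-136752628, minus strand). SMC3 is shown as a cohesin gene without a summit (chr10:110567445-110567744, plus strand). It does not stand for the other genes without one: PDS5A had 45 CG dinucleotides in its window and SMC3 23.
WAPL: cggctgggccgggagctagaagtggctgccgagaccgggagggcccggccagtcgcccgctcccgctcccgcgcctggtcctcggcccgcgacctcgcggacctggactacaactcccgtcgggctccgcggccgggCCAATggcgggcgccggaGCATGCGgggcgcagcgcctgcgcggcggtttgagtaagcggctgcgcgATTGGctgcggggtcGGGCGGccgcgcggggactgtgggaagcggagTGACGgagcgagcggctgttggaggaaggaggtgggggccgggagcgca
CTCF: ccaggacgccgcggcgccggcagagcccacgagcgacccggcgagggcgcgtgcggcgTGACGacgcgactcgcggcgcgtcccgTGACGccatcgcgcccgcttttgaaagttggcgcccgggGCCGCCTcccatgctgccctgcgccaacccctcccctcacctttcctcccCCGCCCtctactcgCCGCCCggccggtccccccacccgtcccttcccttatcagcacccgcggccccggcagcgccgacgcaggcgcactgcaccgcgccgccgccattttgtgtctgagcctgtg
STAG1: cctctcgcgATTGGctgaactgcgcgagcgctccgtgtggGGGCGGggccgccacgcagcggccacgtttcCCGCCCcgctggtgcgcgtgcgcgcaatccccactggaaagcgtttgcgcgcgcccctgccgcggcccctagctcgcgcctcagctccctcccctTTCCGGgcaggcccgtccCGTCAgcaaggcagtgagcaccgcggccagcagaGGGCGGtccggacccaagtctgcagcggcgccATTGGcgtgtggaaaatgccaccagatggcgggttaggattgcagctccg
SMC3: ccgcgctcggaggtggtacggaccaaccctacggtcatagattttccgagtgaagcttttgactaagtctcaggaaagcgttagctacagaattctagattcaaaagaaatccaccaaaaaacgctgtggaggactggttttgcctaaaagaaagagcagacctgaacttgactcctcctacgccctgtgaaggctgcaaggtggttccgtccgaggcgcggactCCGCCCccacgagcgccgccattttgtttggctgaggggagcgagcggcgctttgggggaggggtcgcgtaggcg

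The stretch around the WAPL summit, 30 bases to either side with the summit base in capitals (chr10:86521906-86521966, minus strand), read as follows.
WAPL summit: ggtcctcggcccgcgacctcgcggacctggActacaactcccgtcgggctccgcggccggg
The summit base itself lay in none of the motif matches of this window. The nearest match, a CCAAT box, began at base 138, and the NRF1 core followed at bases 156 to 162.

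The window of CTCF had 46 CG dinucleotides in its 300 bases and a G+C content of 75.3%. That of WAPL had 44 and 76.3%, and that of STAG1 37 and 71.3%. Genes without a summit reached similar values: PDS5A had 45 CG dinucleotides (76.0% G+C), STAG2 34 (67.3%) and NIPBL 30 (67.0%). SMC3 had 23 (56.0%), SMC1A 21 (61.0%) and CTCFL only 2 despite a G+C content of 66.3%. The 3 genes with summits were 3 of the 4 richest in CG dinucleotides, and the other of the 4 was PDS5A, which had no summit. Over all 15812 protein-coding genes in the promoter table the median was 22 CG dinucleotides. It was 30 (quartiles 23 and 38) for the 2045 genes with a summit within 1 kb of a start and 20 (7 and 30) for the 13767 without. Each gene had 1 window, at its most upstream listed start, while the summit could lie at any listed start. The part of base composition in where summits were called was not tested.

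**Figure D3:**
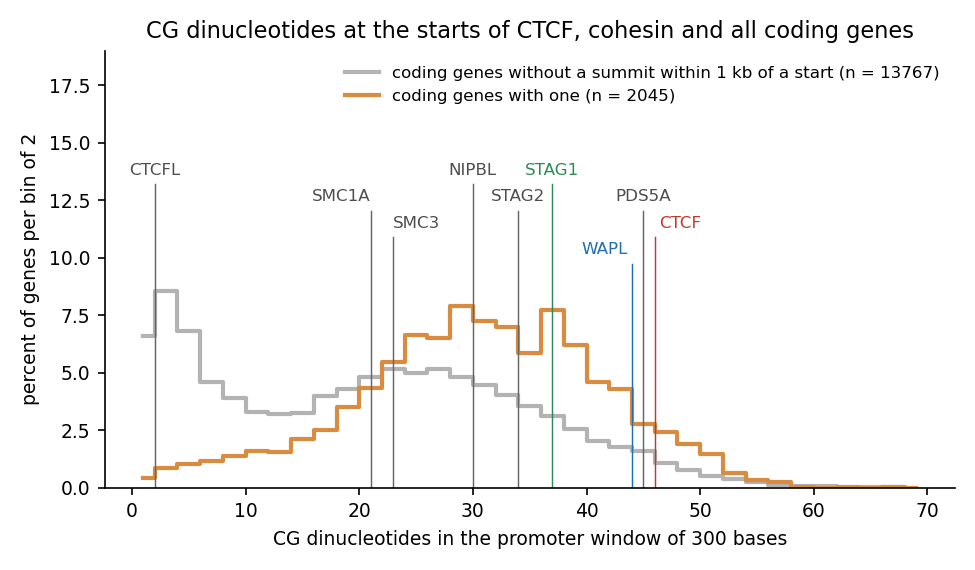
Percent of protein-coding genes (y axis, bins of 2) against the number of CG dinucleotides in the promoter window of 300 bases, for genes with (orange, n = 2045) and without (grey, n = 13767) a summit within 1 kb of a start, with vertical lines at 9 of the 10 CTCF and cohesin genes. CTCF (46), WAPL (44) and STAG1 (37) lie to the right of both medians. So do PDS5A (45) and STAG2 (34), which had no summit, while CTCFL (2) lies far to the left.

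The 9 motifs were searched as plain letter strings on both strands of the same windows. A string of this kind found in a window is a description and not a binding site, and its absence says only that these letters are not in that window. GGGCGG, the GC box recognised by SP and KLF factors, was present in all 9 genes of the group with a window, beside 58.3% of all protein-coding genes. CCAAT, the box bound by NF-Y, was present in WAPL, STAG1, STAG2 and PDS5A, beside 36.4%. TGACG, the core of the cyclic AMP response element, was present in CTCF, WAPL, STAG1 and SMC1A, beside 29.3%. It was thus found at all 3 genes with a summit and at 1 of the 6 others. The strings did not all fall this way: AGGNGGC, given below, was at CTCF alone of those 3 genes. Over all genes, TGACG was present at 36.8% with a summit within 1 kb of a start and at 28.2% without. CCGGAA, the core of ETS sites, was present in STAG1, SMC1A and NIPBL, beside 22.7%. GCATGCG, the core of NRF1 sites, was found at WAPL alone, beside 5.15%. AGGNGGC, a part of the CTCF core, was present in CTCF, CTCFL, SMC1A, NIPBL and PDS5A, beside 42.1%. The TATA box searched as TATAAA was in none of the 9 windows (9.75% of all genes), nor was the E-box searched as CACGTG (8.82%) or the YY1 core searched as AAGATGG (6.36%). No 2 matches overlapped in the 4 windows printed above.

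Each of the 3 genes with a summit starts beside a long non-coding RNA that runs the other way. The upstream CTCF summit lay inside CTCF-DT, 71 bp from the start of that transcript, and inside LOC124903703, a lncRNA antisense to the first part of CTCF. The inner CTCF summit lay inside LOC124903703, 252 bp from its start, and 889 bp from the start of CTCF-DT. The WAPL summit lay between WAPL and WAPL-DT, 11 bp from the start of WAPL-DT and 144 bp from that of WAPL. The STAG1 summit was 951 bp from the start of STAG1-DT on the other side of the STAG1 start. Each of the 4 summits lay in or within 1 kb of a protein-coding gene and of at least 1 lncRNA. The share of all summits that lie so near a lncRNA was not computed, so nothing particular to these genes is shown.

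Nearby starts on the opposite strand were present at genes of the group with and without a summit. They were counted on either side of a gene's own start, so they need not be head-to-head. Of the 9 genes in the promoter table, 7 had a listed start on the opposite strand within 1 kb of their own: at 217 bp for CTCF, 293 bp for STAG1, 155 bp for WAPL, 75 bp for NIPBL, 145 bp for SMC1A, 29 bp for STAG2 and 387 bp for SMC3. Such a neighbour was present at 26.0% of all protein-coding genes in the table. Of these 7 genes, 3 had a summit within 1 kb of a start, beside 20.6% of the 4105 protein-coding genes with such a neighbour. Of the 2 without, CTCFL and PDS5A, neither had a summit, beside 10.3% of 11707. Over all genes in the table the share was 12.9%. A partner named as a divergent transcript of the gene was present at 4 of the 9 genes, beside 2.59% of all genes in the table, and 3 of those 4 had a summit, beside 21.2% of the 410 protein-coding genes of that kind. The exception was NIPBL. This class goes by the name of the partner. STAG2 starts beside STAG2-AS1 and SMC3 beside LOC105378483, and neither gene had a summit or counts in that class. These groupings were chosen after the positions had been seen.

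The place of the summits relative to the start differed among the 3 genes. At the 2045 protein-coding genes that had a summit up to 1 kb from a start, the median position of the nearest was 37 bp upstream, with quartiles from 183 bp upstream to 106 bp inside the gene. It was within 300 bp of the start at 79.4% of them, as at CTCF and WAPL. It was 600 bp or more inside the gene at 2.44%, as at STAG1.

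The ring subunits SMC1A, SMC3 and RAD21 had no summit, and neither did STAG2, the loader NIPBL, PDS5A or CTCFL. The nearest summits were far from the window. The rule took summits up to 1 kb outside a gene. The CTCF summit at 288 bp outside was the nearest to that limit among those taken, and CTCFL, with its nearest summit 184613 bp away, was the nearest among the genes left without. STAG2 followed at 228 kb, SMC3 at 263 kb, PDS5A at 456 kb and NIPBL at 635 kb. The nearest summit to SMC1A was 1110 kb away and the nearest to RAD21, on chromosome 8, 4940 kb away. Over all protein-coding genes without a summit the median distance was 265 kb with quartiles of 79.2 and 878 kb, so SMC1A and RAD21 lay beyond the upper quartile and the other 5 within the quartiles.

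The surroundings differed as much as the genes. Within 1 Mb of CTCF there were 39 summits, its own included, more than at 99.6% of protein-coding genes, and 43 of its 71 protein-coding neighbours (60.6%) had a summit of their own. On chromosome 16 as a whole the share was 23.9%. These 39 summits were 20.1% of all summits of the chromosome. Of them 4 scored at least 10 and 1 scored above CTCF, at 13.37. Within 1 Mb of WAPL there were 8 summits, and 7 of its 14 neighbours had one, beside 18.0% on chromosome 10. STAG1 had 2 summits within 1 Mb, its own included, and 1 of its 6 neighbours had one. For the genes without a summit the counts were 4 for CTCFL and 2 for SMC3 and NIPBL. They were 1 for STAG2 and PDS5A and 0 for SMC1A and RAD21. The median was 2 (quartiles 1 and 5) over protein-coding genes without a summit. It was 5 (quartiles 3 and 10) over those with a summit, their own included, and 3 over all. None of the 22 neighbours of SMC1A and none of the 6 of RAD21 had a summit. On chromosome X, which holds SMC1A and STAG2, 4.72% of protein-coding genes had one. The part of this regional spread in which of the 10 genes had a summit was not tested.

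**Figure D4:**
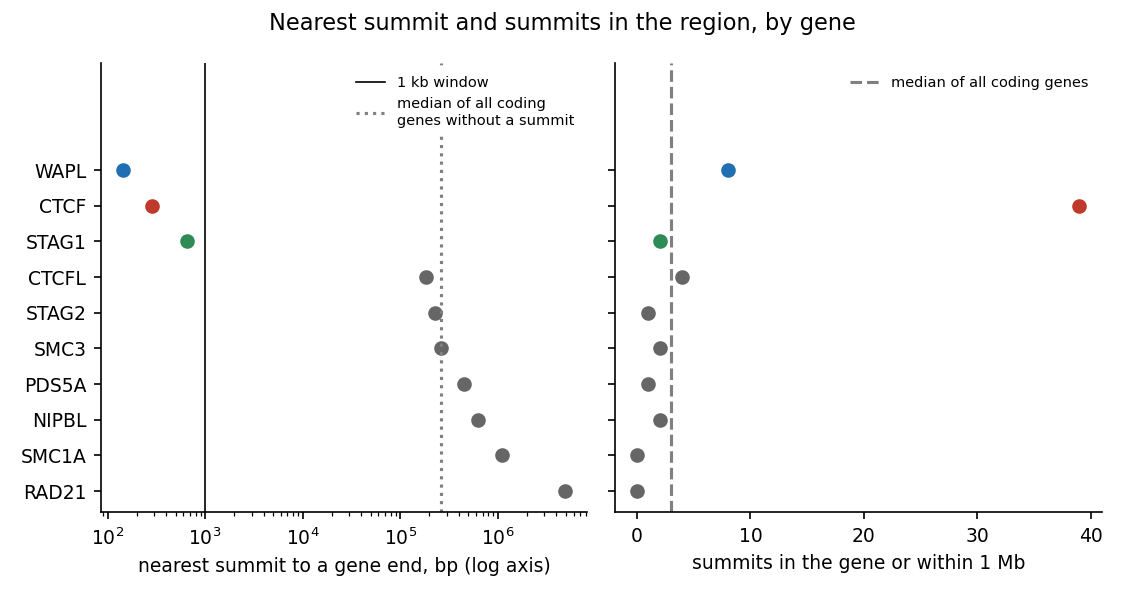
Left, distance in bp (log axis) from the nearest gene end to the nearest summit for each of the 10 genes, with the 1 kb window as a solid line and the median of all protein-coding genes without a summit (265 kb) as a dotted line. Right, number of summits in each gene or within 1 Mb of it, with the median of all protein-coding genes (3) as a dashed line: CTCF has 39, WAPL 8 and each other gene 4 or fewer.

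Paralogs were read side by side. CTCF had 2 summits and CTCFL none, and CTCFL lies on chromosome 20, where 27.2% of protein-coding genes had a summit. STAG1 had 1 and STAG2 none. In the pairs PDS5A and PDS5B, SMC1A and SMC1B, and RAD21 and RAD21L1, neither gene had a summit. A summit was present at 13.8% of all protein-coding genes, and nothing particular to paralogs is shown by these 5 pairs.

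The other genes of these pathways were read in 4 lists of 46 genes. Together 8 of the 46 (17.4%, interval 7.82 to 31.4) had a summit by the same rule, again beside 13.8% of all protein-coding genes, and all 8 had it within 1 kb of a gene end. Their highest scores had a median of 3.90, beside 3.74 over all genes with a summit. Among 14 genes of cohesin loading, cohesion and release, 2 had a summit. CHTF8, a subunit of the clamp loader that acts in sister chromatid cohesion, scored 9.61 with the summit 8 bp inside the gene. CDCA5, which encodes sororin, the protector of cohesin from WAPL, scored 2.66 at 212 bp upstream. The partner loader MAU2, the acetyltransferases ESCO1 and ESCO2, the deacetylase HDAC8 and the protease separase (ESPL1) had none. Of the meiotic cohesin genes SMC1B, REC8, RAD21L1 and STAG3, 0 of 4 had a summit, and a share of up to 60.2% is within the interval.

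Among 16 genes of the related condensin and SMC5/6 complexes, 3 had a summit. SMC6 scored 4.30, 190 bp upstream of its start, and NCAPD2, a condensin I subunit, scored 4.04 at 40 bp upstream. NCAPD3, its condensin II counterpart, scored 3.02 with the summit inside the gene, 899 bp from its nearest end. Among 12 architectural and insulator partners, 3 had a summit: the bHLH factor gene BHLHE40 (5.20, 874 bp upstream), ADNP (3.76, 421 bp upstream) and ZNF143 (2.62, 8 bp upstream), whose product binds at promoters and loop anchors. YY1 and MAZ, which encode other loop-associated zinc finger proteins, had none. At 5 of these 8 genes, CHTF8, CDCA5, SMC6, NCAPD2 and NCAPD3, the summit also lay in or within 1 kb of another protein-coding gene. The share of all protein-coding genes with a summit at which this holds was not computed, so the count is only a description. Of the 8 genes only CHTF8 scored above the WAPL summit, and none reached the upstream CTCF summit.

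**Figure D5:**
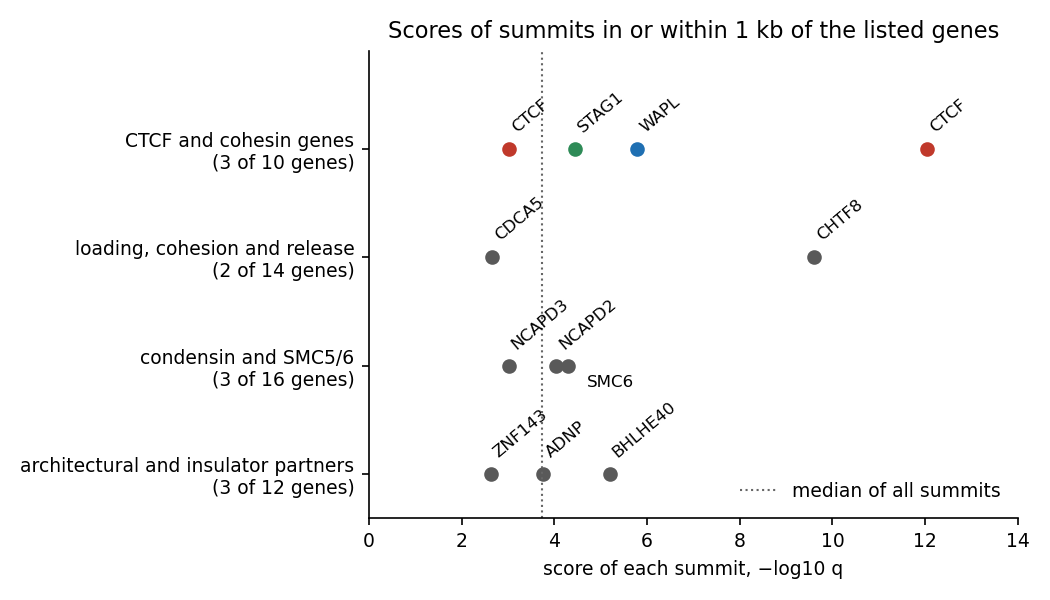
Score of each summit (−log10 q) in or within 1 kb of the CTCF and cohesin genes and of 3 lists of related genes, 1 row per list with the number of genes that have a summit. The dotted line is the median of all summits (3.72). The upstream CTCF summit at 12.05 is the highest and CHTF8 at 9.61 follows it.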

How the data were processed

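The measurement was ChIP-seq with an antibody against WSTF in the colorectal cancer cell line SW620. The submitters' processing notes name the read trimmer Trimmomatic (0.39), the aligner Bowtie2 (2.4.4), the peak caller MACS2 (2.2.7.1) and build hg38. Input DNA was the control for peak calling, per the design text. Pooling of replicates before peak calling is not described in the labels. The values deposited by the authors are 1 score per summit, read as −log10 of the q-value because they start at 1.31, just above the 1.30 of a q of 0.05.

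The 10 genes and all gene lists were chosen with earlier results of these data known. Summit positions were converted to count from 1 and compared with the RefSeq gene table and promoter windows of GRCh38.p14, whose chromosome coordinates are those of hg38. Protein-coding genes on chromosomes 1 to 22 and X entered, since no summit lay elsewhere. A gene had a summit where 1 lay in it or within 1 kb of it. Start sites and strands came from the promoter table, which held 9 of the 10 genes. Base composition and motifs were read at the most upstream listed start of each gene. Summits within 1 kb of a start were counted at any listed start. The search for starts on the opposite strand and the counts within 1 Mb were added after the positions were seen. There were no replicate lists, so no test was run and values are descriptions. Intervals are exact Clopper-Pearson 95% intervals and cover counting error only. The named genes were all 10, every listed pathway gene with a summit, every gene sharing a summit with 1 of the 10, and the 3 genes nearest to the leading gene in score. Listed pathway genes without a summit that are named beside these fall outside that rule and were chosen as familiar members of their lists after their values were seen. The assignment was tested on simulated data. Python 3.11.15, pandas 2.3.3 and scipy 1.17.1 were used. Other windows, score limits and strands were tried as alternatives.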

Additional observations from a re-analysis of the deposited data

How the results depend on the processing

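CTCF, WAPL and STAG1 all had a summit under windows of 5 and 10 kb around the gene, with scores of at least 2 or 3, and without the 3 highest-scoring summits. None of these settings could change which genes had one. Wider windows keep every summit, the scores of these genes pass the limits, and their ranks lie below the top 3. The nearest summit to a gene without one was 184613 bp away. With the gene body alone 2 remained, CTCF and STAG1, the score of CTCF was 3.02 and the median of the highest scores 3.73. With scores of at least 5 the 2 genes were CTCF and WAPL. Within 250 bp of a gene end 1 gene, WAPL, had a summit. The share over all protein-coding genes at that distance was not computed. Taking the lowest-scoring summit of a gene gave a median of 4.44. The share over all protein-coding genes was 8.15% for gene bodies, 15.6% with 5 kb, 17.8% with 10 kb, and 12.8%, 9.66% and 3.71% for scores of at least 2, 3 and 5. By gene length it was 15.5% (10 to 50 kb), 16.5% (50 to 100 kb), 15.1% (100 to 200 kb) and 11.5% (over 200 kb). By chromosome it was 13.1% on 3, 6.88% on 4, 12.2% on 5, 11.3% on 8, 18.0% on 10, 23.9% on 16, 27.2% on 20 and 4.72% on X. On the strand of the gene alone the GC box was found in 4 of 9 windows (40.2% of all genes), near the share over all genes, the response element core in 2 (17.8%), the CCAAT box in 1 (21.1%), the ETS core in 1 (12.8%) and the part of the CTCF core in 0 (25.9%). No paired analysis was possible because there was 1 list and no replicates. Read depth is unknown.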

Other observations

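The same 9 short strings were read over all protein-coding genes in the promoter table, without a test. Each gene was read at its most upstream listed start, whichever listed start had the summit. The GC box was present at 77.4% of the 2045 genes with a summit within 1 kb of a start and at 55.5% of the 13767 without. The NRF1 core was present at 9.19% and 4.55%, the ETS core at 31.3% and 21.4%, and the cyclic AMP response element core at 36.8% and 28.2%. The part of the CTCF core was present at 49.8% and 40.9%, the E-box at 12.3% and 8.30%, and the YY1 core at 8.41% and 6.06%. The TATA box was present at 3.96% and 10.6%, and the CCAAT box at 36.4% and 36.3%. The windows of genes with a summit within 1 kb of a start were also richer in G+C. Their median was 68.3%, beside 61.7% for the genes without. The part of base composition in these shares was not tested.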
